A study of Mus musculus with 6 samples.

Results

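The nuclear-encoded subunits of the mitochondrial respiratory chain were taken from the deposited table by gene symbol. The rule kept symbols that begin with Ndufa, Ndufb, Ndufc, Ndufs or Ndufv and a digit, the genes Sdha, Sdhb, Sdhc and Sdhd, and symbols that begin with Uqc, with Cox4 to Cox8 or with Atp5. It found 82 of 14992 genes, which the prefixes assign to 5 complexes: 36 to complex I, 4 to complex II, 11 to complex III, 16 to complex IV and 15 to complex V. The prefixes are an approximation. Uqcc1, Uqcc2 and Uqcc3 are assembly factors of complex III, and Ndufa4 is now placed in complex IV. Cox7a2l is known as a factor of supercomplexes of complexes III and IV. Of the 82 genes, 80 passed the filter on low counts and were tested, among 12806 tested genes in all. The 2 that did not pass were Ndufa4l2, at 0.0325 to 0.113 CPM in inhibitor libraries and 0.11 to 0.399 CPM in vehicle libraries, and Cox8b, at 0 to 0.0849 CPM in inhibitor libraries and 0.0276 to 0.228 CPM in vehicle libraries. CPM (counts per 1e+06 counts of the library) is scaled between libraries.

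The samples were whole bone marrow from irradiated C57/BL6 mice that had been transplanted with marrow of Dnmt3a knockout donors. Recipients received a PI3Kalpha/beta inhibitor at 75 mg/kg (libraries inhibitor 1, 3 and 5) or vehicle (vehicle 1, 2 and 3), each for 21 days, and both groups carry the knockout. PI3K is a lipid kinase that passes growth factor signals to AKT and mTOR, and the protocol calls the transplanted cells leukaemic. The labels give no age and no allele, do not say that each library is its own mouse, so that p-values rest on library-to-library spread alone, and do not say how much host marrow remained.

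The respiratory chain sits in the inner mitochondrial membrane. Complex I takes electrons from NADH and complex II from succinate, complex III passes them through cytochrome c to complex IV, which reduces oxygen, and complex V uses the proton gradient built by complexes I, III and IV to make ATP. Most subunits are encoded in the nucleus, while the core membrane subunits of complexes I, III, IV and V are encoded in mitochondrial DNA, whose genes had 0 rows in the table. Small accessory subunits surround the catalytic ones and serve assembly and stability.

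Total counts ran from 28198638 to 35299105 in inhibitor libraries and from 33762431 to 59384880 in vehicle libraries. Vehicle 1 stood apart, with a chi-square per degree of freedom of 229 and 278 against vehicles 2 and 3, which differed from each other by 29.6. Summed RNA levels of neutrophil, macrophage and B lymphoid markers did not overlap between the groups, while those of erythroid, T and NK, and stroma markers did. The summed level of 13 neutrophil marker genes was 104600 to 126200 CPM in inhibitor libraries and 41290 to 67230 CPM in vehicle libraries, and that of 15 macrophage markers was 978.8 to 1280 CPM in inhibitor libraries and 2598 to 8895 CPM in vehicle libraries, with vehicle 1 the highest. The 12 erythroid markers summed to 1149 to 2476 CPM with the inhibitor and 1783 to 5962 CPM with vehicle, and the 12 B lymphoid markers to 170.9 to 539.6 CPM with the inhibitor and 49.32 to 120.3 CPM with vehicle. The 10 T and NK cell markers summed to 170.5 to 175.8 CPM with the inhibitor and 164.4 to 248 CPM with vehicle, and the 10 stroma markers to 216.5 to 374 CPM with the inhibitor and 295.5 to 758.6 CPM with vehicle. Gene by gene, the log2 fold change, inhibitor over vehicle, was below 0 for 12 of 12 erythroid, 9 of 10 T and NK and 8 of 9 tested stroma markers. It was below 0 for 15 of 15 macrophage markers, and above 0 for 13 of 13 neutrophil and 11 of 12 B lymphoid markers. Of all tested genes, 50% were above 0. Sums that overlap thus do not show that the markers of a list were alike. No marker was at 0 in every library. In bulk marrow, a changed share of a cell type and a changed RNA content per cell cannot be told apart, and the part of cell makeup in the values of the subunit genes was not tested.

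No respiratory subunit gene passed the edgeR test. At an adjusted p under 0.05, 0 of 80 were called higher with the inhibitor and 0 lower, where 0.633% of all tested genes were called higher and 1.19% lower. By the unadjusted p of edgeR under 0.05, 16 of the 80 were higher, beside 9.68% of all tested genes, and 0 were lower, beside 11.9%. Each library bore on the count of 16, which was 25, 9 and 5 without inhibitors 1, 3 and 5, and 24, 10 and 2 without vehicles 1, 2 and 3. It was 1 with library totals as the scale, which moved the median of all tested genes to -0.14. The log2 fold change, inhibitor over vehicle, was above 0 for 59 of 80 subunit genes and below 0 for 21, beside 50% of all tested genes above 0. Its median was 0.19 over the subunit genes and 0.00 over all tested genes. The median over the subunit genes was 0.11 without inhibitor 5 and 0.12 without vehicle 3. The 3 inhibitor libraries all lay above the 3 vehicle libraries for 20 of the 80 (14.4% of all tested genes) and all below for 2, Sdha and Atp5a1 (16.2% of all). DESeq2 called 4 of the 80 higher, Cox7a2l, Ndufb7, Ndufb11 and Atp5h, and 0 lower, beside 4.9% and 7.23% of all tested genes. Limma voom with sample quality weights called 21 higher and 1 lower, beside 10.7% and 11.6%, and DESeq2 without vehicle 1 called 8 higher and 0 lower, beside 7.04% and 7.58%. The authors' deposited table has 2 of 81 subunit genes higher at an adjusted p under 0.05 and 0 lower, beside 4.24% and 6.57% of the genes it gives an adjusted p. A p that misses the threshold does not show that levels were alike.

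**Figure D1:**
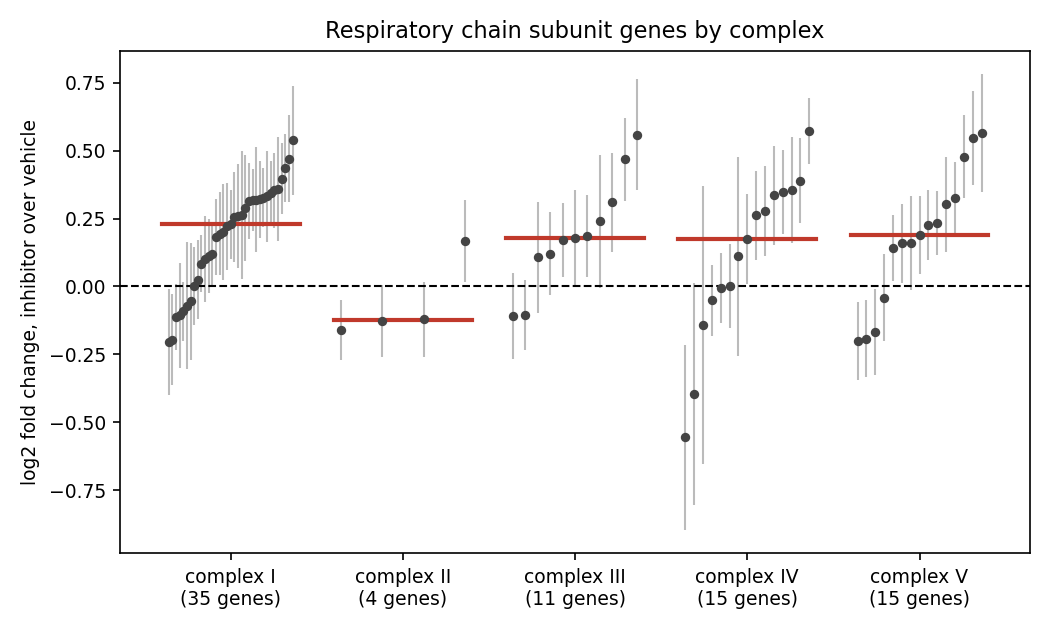
Log2 fold change, inhibitor over vehicle, of the 80 tested subunit genes, with 1 point per gene, ordered by value within its complex, grey bars for the standard error and red lines for the median of each complex. Points above the dashed line are higher with the inhibitor. The medians lie at 0.23 in complex I, -0.12 in complex II, 0.18 in complex III, 0.17 in complex IV and 0.19 in complex V.

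The gene nearest to a call was Cox7a2l, known as a factor of supercomplexes of complexes III and IV. Whether its protein joins these complexes in the mice used was not tested. Cox7a2l was read at 177, 167 and 185 CPM in inhibitors 1, 3 and 5, and at 132, 112 and 111 CPM in vehicles 1, 2 and 3. Every inhibitor library stood above every vehicle library, and vehicle 1 was the vehicle nearest to the inhibitors. This gave a log2 fold change of 0.57 ± 0.12 (edgeR adjusted p = 0.0615; here and below ± after a log2 fold change is the SE, with 3 libraries in each group). Over 18 settings of the processing the adjusted p ran from 0.000647 (DESeq2) to 0.624 (replicate block) and passed in 3. Without vehicle 1 the value was 0.66 and edgeR called it (adjusted p = 0.0175), together with Ndufv3, and 0 lower, where 3.1% of all tested genes were called higher and 4.89% lower. The authors' deposited table gives it a log2 fold change of 0.58 and an adjusted p of 0.00095. Cox7a2l lies on the minus strand of chr17:83501918-83517330 (GRCm38), and its transcript has 1 near-identical copy, a pseudogene, with which reads may be shared.

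**Figure D2:**
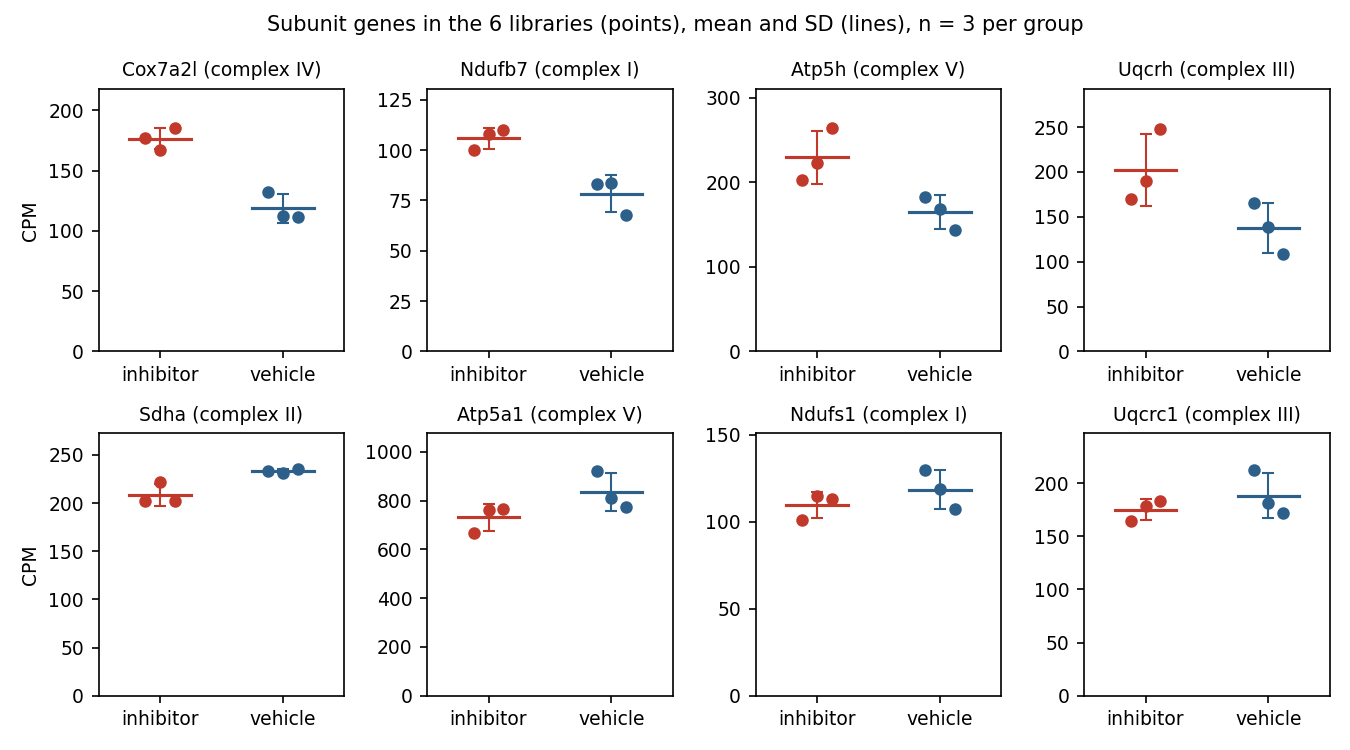
CPM of 8 subunit genes in each library, inhibitor libraries on the left in red and vehicle libraries on the right in blue, with lines for the mean and bars for the SD (n = 3 per group); axes start at 0. Cox7a2l, Ndufb7, Atp5h and Uqcrh in the upper row have all inhibitor points above all vehicle points, and Sdha and Atp5a1 in the lower row have them below.

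In complex I, 8 of 35 tested genes were higher at an unadjusted p under 0.05 and 0 lower, beside 9.68% and 11.9% of all tested genes. A log2 fold change above 0 was found for 28 of the 35, beside 50% of all tested genes. The 4 with the smallest p are all accessory subunits. Ndufb7, of the membrane arm, was read at 99.9, 108 and 110 CPM in inhibitor libraries and at 83.2, 83.9 and 67.7 CPM in vehicle libraries, without overlap. Its log2 fold change was 0.44 ± 0.13 (edgeR adjusted p = 0.105; DESeq2 adjusted p = 0.0302), and the authors' deposited table gives 0.44 with an adjusted p of 0.0377. Ndufb3, also of the membrane arm, was at 56.6, 53.3 and 63.4 CPM with the inhibitor and 44.1, 48.3 and 39.2 CPM with vehicle, a log2 fold change of 0.40 ± 0.13 (edgeR adjusted p = 0.137). Ndufb11, the X-linked membrane arm subunit, was nearly level over the inhibitor libraries at 115, 114 and 114 CPM, against 97.2, 93.1 and 83.5 CPM in vehicles 1, 2 and 3. Its log2 fold change was 0.33 ± 0.11 (edgeR adjusted p = 0.142; DESeq2 adjusted p = 0.0495). Ndufs4, whose loss in mice gives a Leigh-like encephalopathy, had 64.0, 64.0 and 85.1 CPM with the inhibitor and 50.9, 57.7 and 45.3 CPM with vehicle. Inhibitor 5 was the highest library, and the log2 fold change was 0.47 ± 0.16 (edgeR adjusted p = 0.151).

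The parts of complex I did not have like values. The 7 catalytic core genes, which carry the flavin and the iron-sulfur clusters, had a median log2 fold change of -0.09, with 3 above 0 and 4 below. The 28 genes outside that core had a median of 0.28, with 25 above 0. Ndufv1, which binds NADH and the flavin, was at 84.0, 101 and 105 CPM in inhibitor libraries and at 144, 96.3 and 93.3 CPM in vehicle libraries. Vehicle 1 was the highest library, and the log2 fold change was -0.20 ± 0.20 with all 6 libraries and 0.03 without vehicle 1. Ndufs1, the largest iron-sulfur subunit, stood at -0.11 ± 0.12. Split by assembly module, the 10 genes of the NADH-oxidizing module had a median of 0.32, the 5 of the quinone-reducing module one of -0.07, and the 20 others one of 0.26. The core and the rest also differ in length, with medians of 1606 and 618.5 bases. With the length offset described further on, the median was -0.13 in the core and 0.01 in the rest. Under it the NADH-oxidizing module stood at 0.03, the quinone-reducing module at -0.14 and the 20 others at -0.01. The difference between these parts was not tested.

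Complex II, which is also an enzyme of the tricarboxylic acid cycle, was the only complex with a median below 0, at -0.12 over 4 genes. Sdha, the flavoprotein that oxidizes succinate, was at 202, 222 and 202 CPM in inhibitor libraries and at 233, 232 and 235 CPM in vehicle libraries. The vehicle libraries lay close together (SD 1.69 CPM), the groups did not overlap, and the log2 fold change was -0.16 ± 0.11 (edgeR adjusted p = 0.426). Sdhb, the iron-sulfur subunit, had 89.7, 103 and 92.9 CPM with the inhibitor and 118, 101 and 92.1 CPM with vehicle, a log2 fold change of -0.13 ± 0.13. Of the membrane anchors, Sdhc stood at -0.12 ± 0.14 and Sdhd at 0.17 ± 0.15, and in both the groups overlapped.

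Complex III had 2 of 11 genes higher at an unadjusted p under 0.05, beside 9.68% of all tested genes. Uqcrh, the hinge protein that helps cytochrome c dock, was read at 170, 190 and 247 CPM in inhibitor libraries and at 165, 138 and 109 CPM in vehicle libraries. The groups did not overlap, but inhibitor 1 and vehicle 1 lay close, and the log2 fold change was 0.56 ± 0.20 (edgeR adjusted p = 0.175). Uqcc3, an assembly factor that stabilizes cytochrome b, was lower in level, at 22.7, 23.3 and 26.5 CPM with the inhibitor and 15.3, 19.9 and 17.1 CPM with vehicle, a log2 fold change of 0.47 ± 0.15 (edgeR adjusted p = 0.137). Uqcr10, a small subunit, stood at 0.31 ± 0.18 and Uqcc1 at 0.17 ± 0.14. Of the core proteins and the Rieske protein, Uqcrc2 stood at 0.19 ± 0.15, Uqcrc1 at -0.11 ± 0.13 and Uqcrfs1, which carries the Rieske iron-sulfur cluster, at -0.11 ± 0.16. Without the 3 Uqcc genes the median of the complex was 0.15 over 8 genes.

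In complex IV, 2 of 15 genes had an unadjusted p under 0.05 and were higher, Cox7a2l and Cox6c, beside 9.68% of all tested genes. Cox6c, a small nuclear subunit, was at 121, 133 and 163 CPM in inhibitor libraries and at 117, 110 and 91.4 CPM in vehicle libraries, a log2 fold change of 0.39 ± 0.16 (edgeR adjusted p = 0.209). Cox7a2 stood at 0.35 ± 0.15 with no overlap of the groups, and Cox7c at 0.34 ± 0.18 with overlap. Cox4i1, the most abundant gene of the complex per length, was at 352, 380 and 453 CPM with the inhibitor and 372, 339 and 277 CPM with vehicle. Inhibitor 1 lay below vehicle 1 there. Cox5a, Cox6a1 and Cox8a lay at -0.05 ± 0.13, 0.0033 ± 0.15 and -0.0064 ± 0.13.

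Complex V held 4 of 15 genes higher at an unadjusted p under 0.05, beside 9.68% of all tested genes, and its parts had different values. Atp5e, the epsilon subunit of the central stalk, was read at 113, 121 and 158 CPM in inhibitor libraries and at 94.8, 98.6 and 75.3 CPM in vehicle libraries, a log2 fold change of 0.55 ± 0.17 (edgeR adjusted p = 0.131). Atp5h, of the peripheral stalk, was at 203, 223 and 264 CPM with the inhibitor and 182, 169 and 144 CPM with vehicle, a log2 fold change of 0.48 ± 0.15 (edgeR adjusted p = 0.132; DESeq2 adjusted p = 0.048), and it has 4 near-identical pseudogenes. Neither gene had overlapping groups. Atp5l, a small subunit at the dimer interface in the membrane, had 32.2, 40.9 and 42.9 CPM with the inhibitor and 31.8, 27.8 and 18.8 CPM with vehicle (0.57 ± 0.22). Its value is uncertain, because 10 genes, 9 of them pseudogenes, are near-identical to its transcript over at least 100 bases. Atp5j2, also of the membrane part, stood at 0.33 ± 0.13.

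Of the subunits of the catalytic head and central stalk, 3 of 5 had a log2 fold change below 0. Atp5a1, the alpha subunit, was at 668, 760 and 766 CPM in inhibitor libraries and at 923, 812 and 772 CPM in vehicle libraries. The groups did not overlap, by a narrow margin, and the log2 fold change was -0.19 ± 0.14 (edgeR adjusted p = 0.46). Atp5b, the beta subunit that holds the catalytic sites, averaged 954 ± 84.7 CPM with the inhibitor and 1071 ± 143 CPM with vehicle (SD, n = 3 each), a log2 fold change of -0.17 ± 0.16. Atp5d, the delta subunit, stood at -0.20 ± 0.14 and Atp5c1, the gamma subunit, at 0.19 ± 0.14. The median was -0.17 over the 5 genes of head and central stalk, 0.14 over the 3 c ring genes, 0.23 over the 4 of the peripheral stalk and 0.33 over the 3 small membrane subunits. These parts also differ in length, with medians of 1800 bases for head and central stalk, 724 for the c ring, 837.5 for the peripheral stalk and 477 for the small membrane subunits. With the length offset described further on, their medians were -0.19, -0.14, 0.12 and -0.0083, and the difference between the parts was not tested.

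Libraries of 1 group differed among themselves about as much as the groups did. The median deviation of the 80 genes from their mean over 6 libraries, in log2 CPM, was -0.10, 0.09 and 0.27 in inhibitors 1, 3 and 5 and 0.03, -0.05 and -0.29 in vehicles 1, 2 and 3. Inhibitor 1 lay below vehicle 1 and vehicle 2, so the groups overlapped. The pooled SD between libraries of a group was 0.18, close to the median fold change. As a share of all counts, the 80 genes took 0.913 ± 0.14% in inhibitor libraries and 0.925 ± 0.099% in vehicle libraries (SD, n = 3 each). Complex V took the most, with 0.343 ± 0.048% in inhibitor and 0.369 ± 0.036% in vehicle libraries, and complex II the least, with 0.0538 ± 0.0052% in inhibitor and 0.0616 ± 0.0046% in vehicle libraries.

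**Figure D3:**
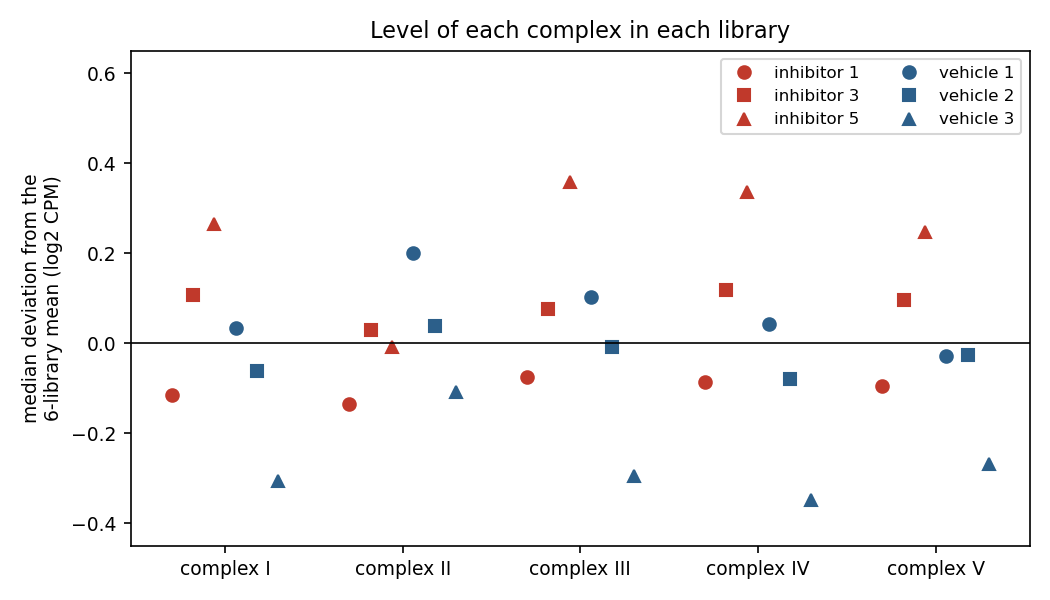
Median deviation of the genes of each complex from their mean over the 6 libraries (log2 CPM), with red symbols for inhibitor and blue symbols for vehicle libraries. Inhibitor 5 is the highest library in complexes I, III, IV and V and vehicle 3 the lowest, and in complex II vehicle 1 is the highest.

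The fold changes followed gene length, as given in the deposited table. The Spearman correlation between log2 fold change and length was -0.389 over the 80 subunit genes and -0.147 over the 12726 other tested genes, as a description across genes that share the same libraries. Subunit genes of 700 bases or less had a median of 0.27, with 34 of 40 above 0, and longer ones one of 0.14, with 25 of 40 above 0. Other genes of 700 bases or less had a median of 0.33, with 298 of 393 above 0, and other longer genes one of -0.0089. Up to 500 bases the medians were 0.31 for 15 subunit genes and 0.40 for 159 other genes, and from 500 to 700 bases 0.20 for 25 and 0.28 for 234. In these classes the subunit genes thus lay no higher than other short genes. From 700 to 1000 bases the medians were 0.16 for 14 subunit genes and 0.19 for 538 others, and from 1000 to 1500 bases 0.03 for 11 and 0.09 for 1271. Only from 1500 to 3000 bases did the subunit genes lie higher, with a median of 0.17 over 15 of them and -0.0090 over 4475 others. The other genes up to 500 bases had the same highest and lowest library as the subunit genes, with median deviations of 0.0047, 0.18 and 0.41 in inhibitors 1, 3 and 5 and 0.05, -0.20 and -0.43 in vehicles 1, 2 and 3.

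With a length trend removed from each library by an offset, the median of the 80 genes was -0.0718, and those of the complexes were -0.0185 in I, -0.19 in II, -0.13 in III, -0.12 in IV and -0.0658 in V. Under that offset, 3 genes were higher at an unadjusted p under 0.05 in edgeR, Cox7a2l, Ndufs4 and Ndufv3, beside 9.4% of all tested genes. Another 8 were lower, Ndufa5, Ndufa10, Ndufa12, Sdhb, Sdhc, Cox5a, Cox6a1 and Atp5d, beside 12.7%. At an adjusted p under 0.05, 0 of the 80 were called higher and 0 lower, beside 0.406% and 0.984%. Cox7a2l kept a log2 fold change of 0.45, and Ndufs4 one of 0.41, whereas Ndufb7 stood at 0.13, Atp5h at 0.18 and Uqcrh at 0.25. Whether the dependence on length came from the cells or from the preparation was not tested.

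**Figure D4:**
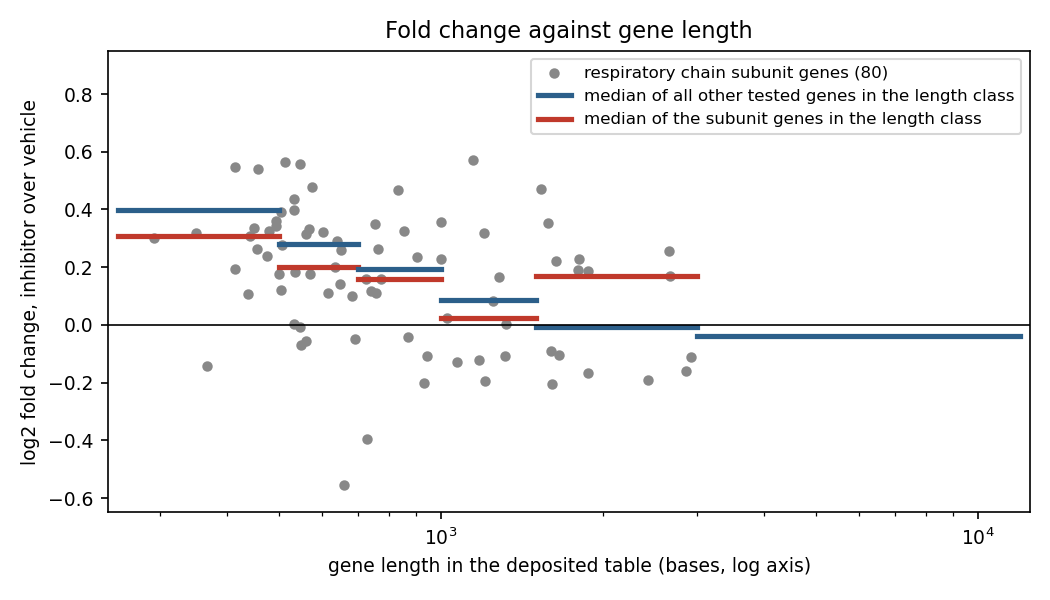
Log2 fold change, inhibitor over vehicle, against gene length in bases (log axis) for the 80 subunit genes (grey points). Red lines give the median of the subunit genes and blue lines that of the other tested genes in each length class; up to 500 bases they lie at 0.31 and 0.40.

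Levels were compared between genes as CPM per kb of gene length, averaged over the 6 libraries. The median gene stood at 68.9 CPM per kb in complex I, 88.6 in complex II, 110 in complex III, 172 in complex IV and 198 in complex V. Atp5b was the highest in complex V at 539 CPM per kb and Cox4i1 in complex IV at 474, followed by Uqcrh at 311 in complex III, Ndufa4 at 261 in complex I and Sdhd at 121 in complex II. The lowest tested gene was Cox4i2 in complex IV at 1.01 CPM per kb, Uqcc1 in complex III at 8.28, Ndufa11 in complex I at 14.7, Atp5g2 in complex V at 61.1 and Sdha in complex II at 77.3 CPM per kb. For Ndufa11 the deposited table gives a length of 2661 bases, where its exons in GENCODE M21 hold 1092 bases. Its level per length, and its rank as the lowest in complex I, are therefore uncertain. Reads that fall on pseudogenes or overlapping genes also limit such levels. Of the 82 genes, 23 have a near-identical stretch of at least 100 bases in another gene. The 3 genes Ndufb6, Ndufa13 and Atp5o share over 25% of their exon bases with another gene, and Atp5o is also among the 23.

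**Figure D5:**
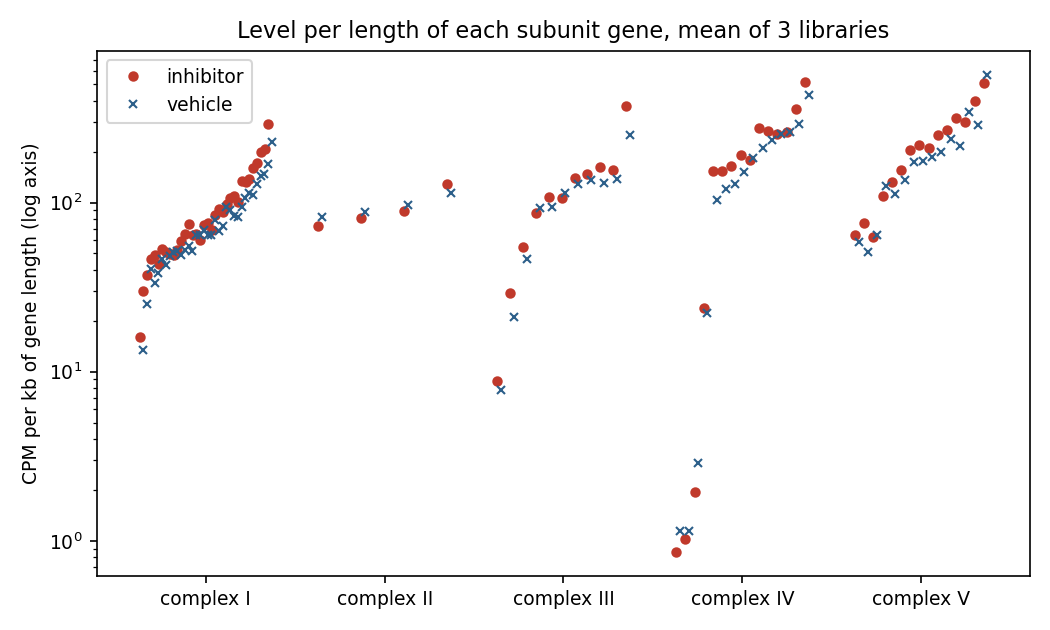
Mean level per length (CPM per kb, log axis) of each tested subunit gene, ordered within its complex, with red dots for inhibitor and blue crosses for vehicle (mean of 3 libraries each). The 3 genes near 1 to 3 CPM per kb in complex IV are Cox4i2, Cox7a1 and Cox6a2.

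Isoforms known from muscle, lung or testis made up little of the level of their pairs. Of the level per length of the Cox4 pair, Cox4i2, the lung-enriched isoform, took 0.167 ± 0.025% in inhibitor libraries and 0.26 ± 0.081% in vehicle libraries (SD, n = 3 each). Cox6a2, the heart and skeletal muscle form, took 0.758 ± 0.21% of its pair with the inhibitor and 1.14 ± 0.48% with vehicle, and Cox7a1, another muscle form, 0.606 ± 0.19% with the inhibitor and 0.881 ± 0.37% with vehicle. Cox6b2, known from testis, took 6.26 ± 0.94% with the inhibitor and 6.87 ± 2.6% with vehicle. The c ring of complex V is built from identical mature proteins made by 3 genes, of which Atp5g3 gave 67.8 ± 0.73% of the level with the inhibitor and 66.0 ± 1.8% with vehicle. Atp5g1 gave 15.9 ± 1.1% with the inhibitor and 17.9 ± 1.2% with vehicle, and Atp5g2 gave 16.3 ± 0.45% with the inhibitor and 16.1 ± 1.1% with vehicle. Transcripts of Atp5g3, Atp5g1 and Atp5g2 have such near-identical stretches in 0, 13 and 2 other genes. The shares of all these isoforms were not tested between groups.

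Promoters of 4 genes are shown that hold a motif of a factor known to drive respiratory chain genes, NRF1 or the ETS family, to which GABP belongs. Among genes named for p or level in their complex, they have the smallest p with a motif and at most 30 bases inside the annotated gene. Ndufb7, Atp5h, Sdha, Sdhd and Atp5g2 also hold a motif but are not shown, and Sdha had a log2 fold change below 0. Each is the 250 bases before the gene's start in RefSeq (GRCm38.p6), 5′ to 3′ on the strand of the gene, with the motif in capitals. The motifs searched, on both strands, were GCGCA and GCGC set apart by any 1 base for NRF1, and CCGGAAG for ETS. Atp5e lies at chr2:174464102-174464351 (minus strand), Uqcrh at chr4:116075071-116075320 (minus), Atp5l at chr9:44920743-44920992 (minus) and Ndufa11 at chr17:56717512-56717761 (plus).
Atp5e: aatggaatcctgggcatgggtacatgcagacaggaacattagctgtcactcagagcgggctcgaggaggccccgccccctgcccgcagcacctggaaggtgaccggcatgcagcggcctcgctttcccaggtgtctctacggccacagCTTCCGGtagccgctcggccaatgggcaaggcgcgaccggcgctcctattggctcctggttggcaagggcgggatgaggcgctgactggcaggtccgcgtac
Uqcrh: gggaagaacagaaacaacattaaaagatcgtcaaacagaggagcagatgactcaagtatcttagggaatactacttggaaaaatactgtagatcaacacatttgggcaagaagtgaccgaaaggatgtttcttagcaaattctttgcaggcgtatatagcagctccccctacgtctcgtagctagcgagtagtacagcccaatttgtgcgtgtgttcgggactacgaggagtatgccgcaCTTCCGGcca
Atp5l: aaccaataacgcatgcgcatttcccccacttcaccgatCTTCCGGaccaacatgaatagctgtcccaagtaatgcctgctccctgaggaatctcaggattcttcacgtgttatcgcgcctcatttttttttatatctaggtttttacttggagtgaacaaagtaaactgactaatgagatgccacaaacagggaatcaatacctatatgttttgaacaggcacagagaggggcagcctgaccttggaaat
Ndufa11: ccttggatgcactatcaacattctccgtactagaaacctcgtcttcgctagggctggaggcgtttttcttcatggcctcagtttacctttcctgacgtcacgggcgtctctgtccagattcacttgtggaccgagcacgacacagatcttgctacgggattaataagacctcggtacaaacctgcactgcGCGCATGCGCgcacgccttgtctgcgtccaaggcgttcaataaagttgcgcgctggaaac
The first 3 hold 1 ETS motif each and Ndufa11 holds 1 NRF1 motif. Of the 82 genes, 67 had a promoter in the RefSeq table, and 17.9% of those held the NRF1 letters, 16.4% the ETS letters and 29.9% either. Over the 10047 tested genes with a promoter the shares were 8.17%, 13.8% and 20.7%, and over all 32851 promoters 3.74%, 6.91% and 10.1%. A match is a description of letters and not a measured binding site.

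Genes that work beside the subunits were read from lists. Calls in these lists are those of edgeR, by which 0.633% of all tested genes were called higher and 1.19% lower. At these shares, 0 calls in a list says little about its genes. Of 7 subunits and carriers outside the rule, among them Cyc1, Cycs and Ndufab1, 0 were called. Cycs, cytochrome c, stood at -0.22 ± 0.14, Cyc1, cytochrome c1, at -0.15 ± 0.15, Ndufab1, the acyl carrier subunit, at 0.09 ± 0.23 and Atpif1, the inhibitor of complex V, at 0.19 ± 0.33. The electron transfer flavoproteins Etfa and Etfb and their dehydrogenase Etfdh stood at -0.008 ± 0.17, 0.31 ± 0.12 and -0.14 ± 0.13. Of 47 assembly factors 0 were called, and the median was 0.05. The nearest was Pet100, a chaperone of complex IV assembly, with 37.6, 36.8 and 43.8 CPM in inhibitor libraries and 23.4, 24.9 and 18.2 CPM in vehicle libraries, without overlap (0.83 ± 0.16; edgeR adjusted p = 0.0537). Over 18 settings the adjusted p of Pet100 ran from 0.000332 (DESeq2) to 0.336 and passed in 3. Sdhaf2, which flavinates Sdha, stood at 0.39 ± 0.12 and Cox10, which makes heme A precursor, at -0.44 ± 0.16.

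Around the chain, edgeR called 0 of 16 tricarboxylic acid cycle genes (median -0.06), with Ogdh at -0.28 ± 0.11 and Dlat at -0.27 ± 0.14. For this list and those that follow, 0.633% of all tested genes were called higher and 1.19% lower. None of 11 coenzyme Q synthesis genes was called (median -0.03), with Coq4 at 0.35 ± 0.16, Coq5 at -0.32 ± 0.15 and Coq3 at -0.32 ± 0.17. Of 77 mitochondrial ribosome genes 0 were called and the median was 0.09, with Mrpl33 at 0.54 ± 0.14, Mrps21 at 0.43 ± 0.12 and Mrpl24 at 0.48 ± 0.13. DESeq2 called 3 of the 77 higher and 0 lower, beside 4.9% and 7.23% of all tested genes. Limma voom with sample quality weights called 8 higher and 2 lower, beside 10.7% and 11.6%. In the list of uncoupling and ADP/ATP exchange genes 0 of 8 were called (median -0.14). Slc25a4, an ADP/ATP carrier, stood at -0.54 ± 0.15 (edgeR adjusted p = 0.0981). Its adjusted p passed 0.05 in 3 of 18 settings: DESeq2 (0.0284), limma voom with quality weights (0.0311) and edgeR with the length offset (0.0463). Ucp3 stood at -1.52 ± 0.59 and Ucp2 at -0.37 ± 0.22, and vehicle 1 was the highest library for both uncoupling proteins.

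Among 17 biogenesis regulators and mitochondrial DNA maintenance genes, 1 was called, as lower, beside 1.19% of all tested genes. Ppargc1b, a coactivator that raises respiratory gene transcription, fell with the inhibitor, at 1.59, 1.94 and 1.90 CPM in inhibitor libraries and 4.59, 4.28 and 3.95 CPM in vehicle libraries. The groups were far apart, and the log2 fold change was -1.24 ± 0.22 (edgeR adjusted p = 0.0469). Over 17 settings the adjusted p ran from 4.42e-05 to 0.417 and passed in 8. Of 19 glycolysis genes 1 was called, as higher, beside 0.633% of all tested genes, and the list's median was -0.13. Ldhb, the lactate dehydrogenase subunit that favours pyruvate formation, rose to 17.4, 16.4 and 12.1 CPM with the inhibitor, against 7.18, 6.96 and 7.62 CPM with vehicle. The log2 fold change was 1.08 ± 0.19 (edgeR adjusted p = 0.0428), and over 18 settings the adjusted p ran from 2.05e-05 to 0.252 and passed in 10. Leaving out any library but vehicle 1 ended both calls, with adjusted p of 0.0818 to 0.186 for Ppargc1b and 0.0764 to 0.18 for Ldhb in edgeR. The cell markers above differ between the same groups, and their part in both values was not tested.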

How the data were processed

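RNA of 6 mouse marrow samples was made into cDNA with an ultra-low input SMART-Seq v4 kit and into libraries with Nextera XT, which does not mark strand, per the labels' protocols. The submitters' processing notes name STAR, featureCounts and the build mm10, and no versions. For 14992 genes, raw read counts were deposited in a single table. Per the file headers it also holds gene length in bases, and the authors' own fold change (a ratio), log2 fold change, p-value and adjusted p-value.

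The test over all genes used edgeR 4.0.16 (R 4.3.3): filterByExpr by group (12806 tested), TMM factors, and quasi-likelihood F tests on group, with Benjamini-Hochberg adjusted p under 0.05 over all 12806. The standard error is the size of the log2 fold change divided by the square root of F. The biological coefficient of variation was 25.2%. DESeq2 1.42.0 and limma 3.58.1 were alternatives, and the steps were tested on simulated data. Members and lists were chosen with earlier results of these data known. Named were, in each complex, the 4 genes of smallest p and those of highest and lowest level per length, isoform pairs, and in each list called genes or the 3 of smallest p. Other genes named, such as catalytic subunits, were chosen after their values were seen. Some genes that meet the rule were counted but are not named here. Near-identical copies (blastn 2.17.0, at least 95% identity over at least 100 bases) and exon overlaps come from GENCODE M21. A near-identical copy may match only part of a transcript. Proteins were not used here. Alternatives were other scalings, filters, tests and thresholds, a replicate block, each library left out and a length offset.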

Additional observations from a re-analysis of the deposited data

How the results depend on the processing

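The edgeR counts of 0 subunit genes called higher and 0 lower became 4 higher with DESeq2, 21 higher and 1 lower (Cox6a2) with limma voom and sample quality weights, and 1 higher at an adjusted p under 0.10. Leaving out 1 library gave 0 to 2 higher in edgeR, with 2 without vehicle 1, and 0 lower; DESeq2 without vehicle 1, chosen after seeing the data, gave 8 higher. The length offset, also chosen after seeing the data, moved the medians to -0.0718 over all subunit genes, -0.0185 in complex I, -0.1258 in III, -0.1223 in IV and -0.0658 in V. Leaving out 1 library kept the median over all subunit genes between 0.1119 and 0.2766, and that of complex II between -0.1796 and -0.023. Scaling by library totals alone shifted the median of all tested genes to -0.1367, put complex II at -0.2577 and left 1 subunit gene above and 1 below 0 with an unadjusted p under 0.05. Quality weights put complex II at 0.0032.

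Of 79 genes followed one by one, 52 kept their direction in every setting run on them. The 79 mix subunit genes with genes of the lists beside them, and do not hold every subunit gene. With the length offset the sign turned for Ndufa3 (-0.0657), Ndufa13 (-0.0185), Ndufb6 (-0.135), Uqcc2 (-0.1258), Uqcr10 (-0.0363), Cox6a1 (-0.306), Cox6b1 (-0.0517), Cox6b2 (-0.1562), Cox7c (-0.0102), Atp5g2 (-0.1388), Atp5g3 (-0.0861), Atp5j2 (-0.0083), Atp5o (-0.0658) and Ndufab1 (-0.1302). With quality weights it turned for Ndufv1 (0.0428), Ndufa5 (0.1901), Ndufa10 (0.0236), Ndufa12 (0.1482), Cox5a (0.0606), Sdhb (0.0319), Uqcrfs1 (0.0572), Cox8a (0.1533), Atp5g1 (0.1037) and Etfa (0.1331). With library totals it turned for Ndufa13 (-0.0539), Cox6a1 (-0.1287), Cox6b2 (-0.0133) and Ndufab1 (-0.036), and with the 5 CPM filter for Cox6a1 (-0.01). Leaving out 1 library gave values on both sides of 0 for Ndufv1 (-0.3176 to 0.0265), Ndufa5 (-0.215 to 0.1248), Ndufa12 (-0.2169 to 0.1033), Uqcc2 (-0.0252 to 0.4456), Cox5a (-0.1388 to 0.0567), Uqcrfs1 (-0.2175 to 0.0484), Cox4i2 (-0.6048 to 0.0149), Cox6a1 (-0.0682 to 0.1421), Cox6b2 (-0.0884 to 0.598), Cox7a1 (-0.5863 to 0.2563), Cox8a (-0.0841 to 0.0656), Atp5g1 (-0.1241 to 0.1064), Ndufab1 (-0.0849 to 0.2669), Atpif1 (-0.0255 to 0.6145) and Etfa (-0.1304 to 0.142). Subunit genes not named in these lists turned too, so the lists are not complete. With the length offset they included Ndufb9 (-0.0104), Ndufb10 (-0.0778), Uqcrq (-0.1543) and Cox5b (-0.1223). Leaving out 1 library also gave both signs for Ndufs3 (-0.216 to 0.087) and Uqcr11 (-0.061 to 0.273). Apart from the length offset, whose construction removes a length trend, the cause was not tested.

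Inhibitor and vehicle libraries share only the numbers 1 and 3, whose deviations correlated at -0.421 and -0.042. Libraries of unlike number correlated at -0.361 to 0.388. With so few libraries these values cannot settle whether the numbers pair the samples. With the number as a replicate block, which left 1 residual degree of freedom, 0 subunit genes were called, 0 of all genes were higher and 7 lower, the median over the subunit genes was 0.1313, and Cox6a1 (-0.083), Cox6b2 (-0.1139) and Atpif1 (-0.044) turned below 0. Counts are lowest, and counting error so largest in proportion, for genes near 1 CPM such as Cox4i2 and Cox7a1.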
